A study of Mus musculus with 32 samples.

Results

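The genes described are 7 transcription factors of the myeloid lineage, Spi1, Cebpa, Irf8, Gfi1, Runx1, Klf4 and Egr1, measured by RNA sequencing in mouse hematopoietic progenitors. They were taken by gene symbol from a list of 10 such factors, and they are 7 of the 27728 genes in the count table. Cebpb, Cebpd and Cebpe, the other factors of that list, were not analysed here.

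Myeloid transcription factors are DNA-binding proteins that direct progenitors toward granulocytes or toward monocytes and dendritic cells. Spi1 encodes PU.1, an ETS factor that both branches need, and Cebpa encodes C/EBP-alpha, which opens the granulocyte-monocyte programme. Irf8 and Klf4 favour the monocyte and dendritic branch, whereas Gfi1 is a repressor that favours granulocytes and opposes PU.1 activity. Runx1, which binds DNA with its partner CBFB, acts earlier, in stem and progenitor cells. Egr1 is an immediate early gene, switched on within minutes of a stimulus, and its protein also takes part in monocyte differentiation.

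U2af1, the gene altered in these mice, encodes a protein that recognises the end of introns during splicing. All cells were sorted as Lin- cKit+ Sca1-, a gate for committed progenitors of the myeloid and erythroid lineages. Fetal liver at E14.5, without treatment, gave 15 libraries, and bone marrow of adult mice, whose age was not given in the sources used here, gave 17. Fetal batch A held the flox control, U2af1(flox/flox) without Cre (n = 3), the heterozygous deletion, with Vav1-Cre and 1 floxed allele (n = 3), the homozygous deletion, Vav1-Cre/U2af1(flox/flox) (n = 3), and 1 library with Vav1-Cre alone. Batch B held 4 libraries of Vav1-Cre/U2af1(wt/S34F), which carry a substitution in the zinc finger of U2AF1, and 1 library with Vav1-Cre alone. The batch is the one written in the labels. Vav1 drives Cre in all blood cells from fetal life on, and the control without Cre lacks both the recombinase and the deletion. All adult mice carried Mx1-Cre, rTA and the transgene tgU2AF1(WT). Those of the 3 dose groups were U2af1(flox/S34F), so that loss of the floxed allele left S34F as the only endogenous allele beside the transgene of wild-type U2AF1. They received pIpC, an inducer of interferon that switches on Mx1-Cre, and chow with doxycycline to induce the transgene, at 1250 ppm in 4 libraries, 2500 ppm in 6 and 10000 ppm in 4. The adult control was U2af1(wt/wt) on that background, untreated (n = 3), so genotype, pIpC and doxycycline changed together and cannot be told apart in any contrast with it. The level of U2af1 was not analysed here, and the genotypes therefore rest on the labels alone.

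Each level is given as CPM, a gene's count per 1000000 counts of its library, with edgeR's TMM scaling across the 32 libraries. Total counts ran from 26588099 to 71251200 per library, and all 7 genes passed the filter on low counts in each test. The progenitor markers Kit, Cd34, Ptprc and Myb were detected in every group, with a summed level of 1530 to 2830 CPM over the 32 libraries. Nothing in the labels says that replicates came from separate animals, so p-values measure the spread between these libraries. In bulk RNA, fewer cells of a type and less RNA per cell cannot be told apart.

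In fetal batch A, the homozygous deletion separated the factors into opposite directions. Irf8 and Klf4 fell about 4 to 5 times against the flox control, Gfi1 rose 2.53 times, and Cebpa and Spi1 rose by less. Against the flox control 5 of the 7 genes were called at an adjusted p under 0.05 with edgeR's quasi-likelihood test and Benjamini-Hochberg adjustment, 3 higher and 2 lower. The background was high, because 41.0% of the 12678 genes tested were called in this comparison, 18.5% higher and 22.4% lower. The count of members called is therefore read for its sizes and directions rather than for its share.

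**Figure D1:**
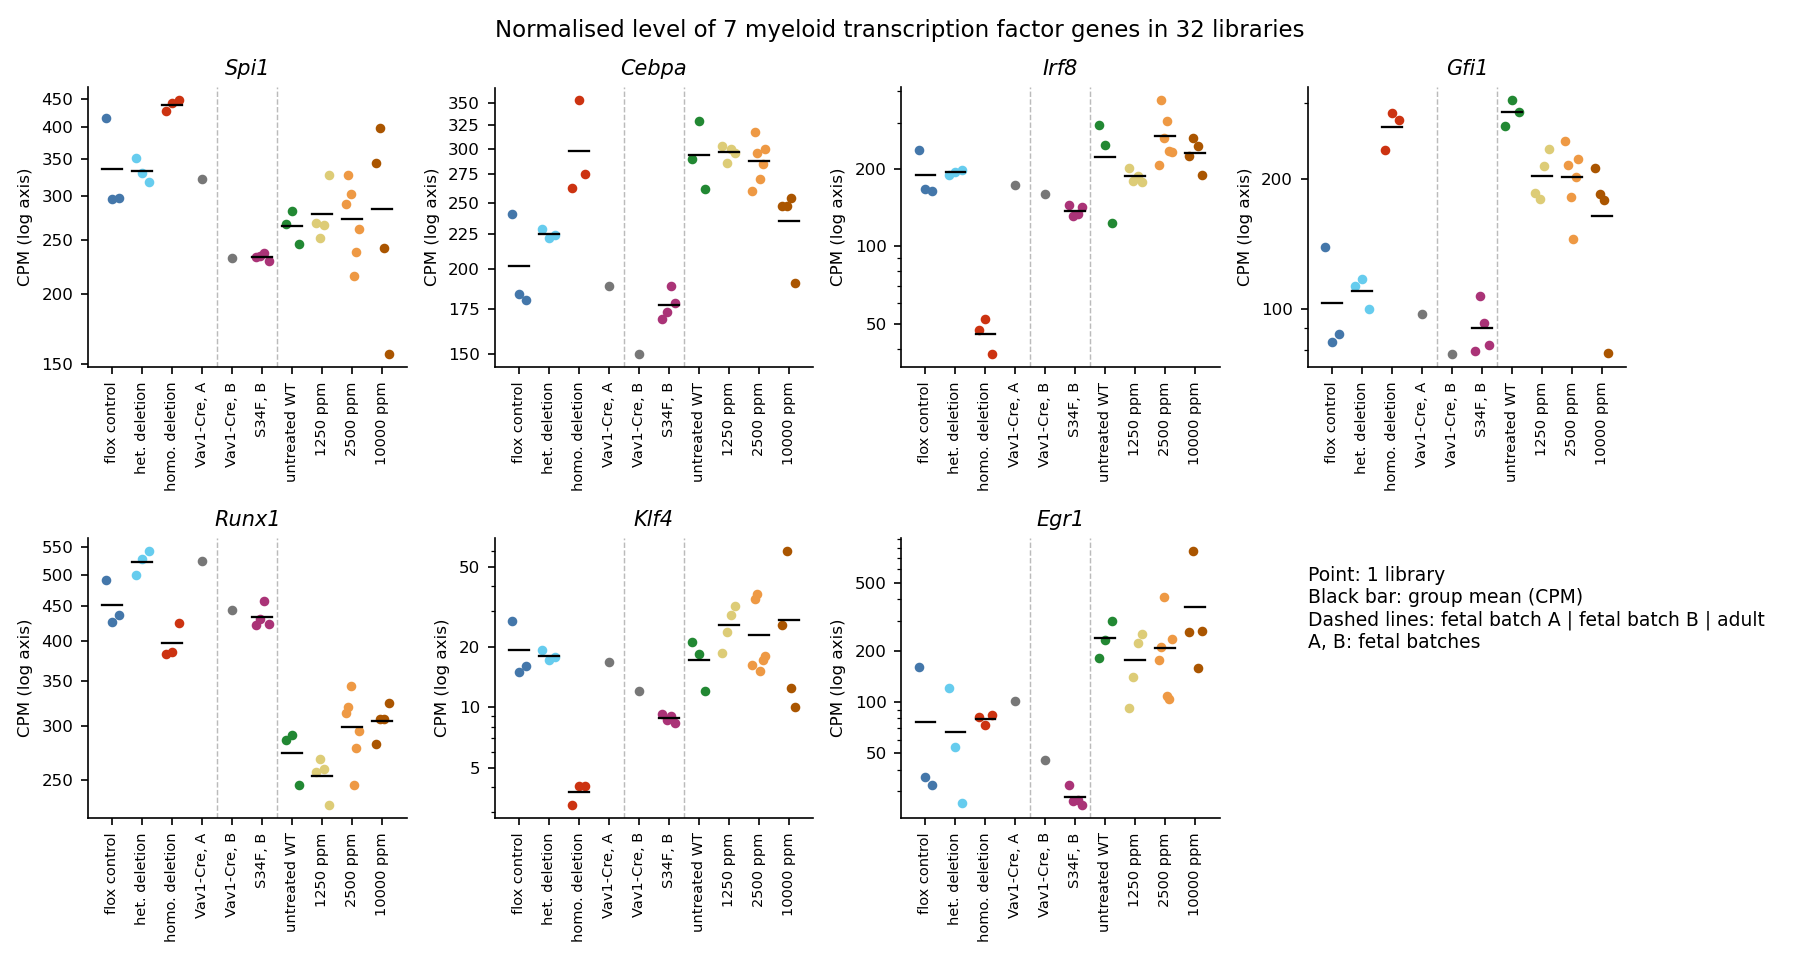
CPM of the 7 genes (log axis, 1 panel per gene) in each of the 32 libraries, by group, with the group mean as a black bar. In Irf8 and Klf4 the 3 homozygous deletion libraries lie below every other library, and in Gfi1 they lie above all other fetal libraries.

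Irf8 (ENSMUSG00000041515, GRCm38 chromosome 8, 120736358 to 120756694, plus strand) encodes an interferon regulatory factor needed for monocytes and dendritic cells. Its level was 236, 166 and 164 CPM in the flox control replicates 3, 4 and 5, and 47.1, 52.0 and 38.0 CPM in the homozygous deletion replicates 2, 3 and 4. The heterozygous deletion libraries held 189, 194 and 198 CPM, and the Vav1-Cre library of the same batch held 173 CPM. No homozygous deletion library came near any other library of the series, of which the lowest was an adult untreated wild-type library at 123 CPM. The log2 fold change against the flox control was -2.06 with a 95% interval from -2.36 to -1.76, a 4.17-fold fall (adjusted p = 4.59e-06, edgeR). Irf8 also fell against the heterozygous deletion, by 2.11 on the log2 scale (adjusted p = 5.14e-06, edgeR).

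Klf4 (ENSMUSG00000003032, chromosome 4, 55527143 to 55532466, minus strand), a zinc-finger factor of monocytes, was the least abundant of the 7. It had 26.9, 15 and 16 CPM in the flox control and 3.26, 4.07 and 4.07 CPM in the homozygous deletion. The heterozygous deletion held 19.3, 17.1 and 17.7 CPM and the Vav1-Cre library 16.7 CPM, so that the homozygous libraries again stood below all others. The log2 fold change was -2.36 (95% interval -2.83 to -1.89, a 5.13-fold fall, adjusted p = 2.94e-05, edgeR), and -2.27 against the heterozygous deletion (adjusted p = 3.87e-05, edgeR).

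Gfi1 (ENSMUSG00000029275, chromosome 5, 107716657 to 107726036, minus strand) moved the other way. It had 139, 83.5 and 87.6 CPM in the flox control, 113, 117 and 100 CPM in the heterozygous deletion and 234, 285 and 274 CPM in the homozygous deletion. The homozygous libraries did not overlap those of any other fetal group, and they lay within the range of the adult libraries, 79.1 to 305 CPM. The log2 fold change was 1.34 (95% interval 0.97 to 1.71, adjusted p = 0.000195, edgeR) against the flox control and 1.24 (adjusted p = 0.000265, edgeR) against the heterozygous deletion. An exon of Gfi1 overlaps A430072P03Rik on the other strand, and the use of strand in the counting is not given in the sources used here, so reads of both cannot be told apart.

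The balance of Irf8 and Gfi1 was taken within each library as the log2 ratio of their CPM per kilobase of exon, which corrects for gene length. It was between -0.38 and -0.16 in the flox control and between -0.42 and -0.16 in the heterozygous deletion, so that both genes stood at similar levels per kilobase there. In the homozygous deletion it was between -4.00 and -3.46, with Gfi1 more than 10 times above Irf8 per kilobase. The Vav1-Cre libraries had -0.31 in batch A and -0.13 in batch B. In adult libraries the ratio ran from -2.36 to 0.11, below 0 in most libraries, and no adult library reached the level of the homozygous deletion. The length used was that of all annotated exons of a gene together, 7055 bases for Irf8 and 3187 for Gfi1. Levels compared between the genes depend on it, while differences in the ratio between libraries do not. In CPM the flox control means were 189 for Irf8 and 103 for Gfi1, and those of the homozygous deletion 45.7 and 264.

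**Figure D2:**
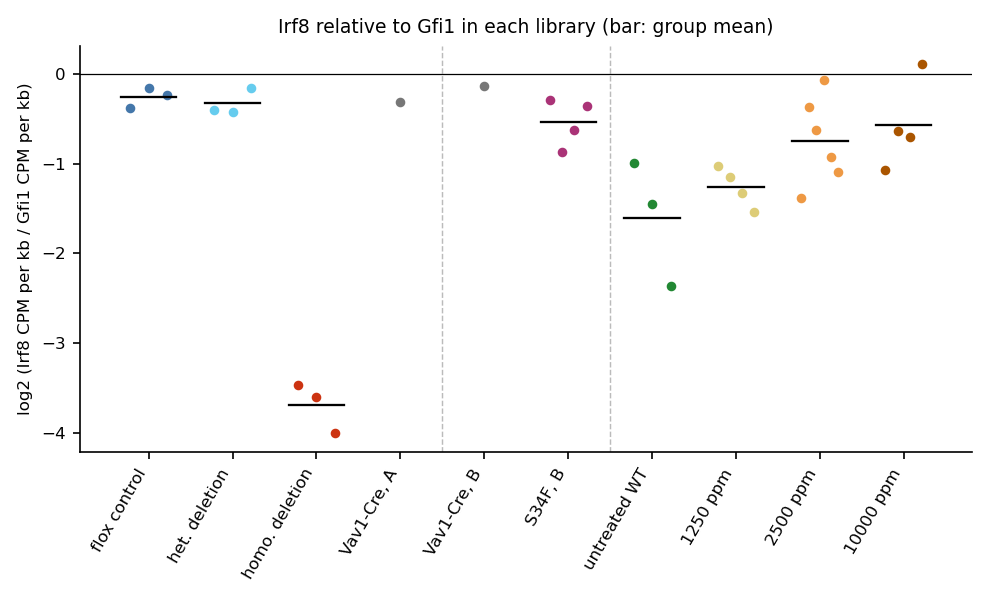
Log2 ratio of Irf8 to Gfi1 (each as CPM per kilobase of exon) in every library, by group, with the group mean as a bar. The 3 homozygous deletion libraries lie between -4.00 and -3.46, apart from the 12 other fetal libraries at -0.87 to -0.13 and from the 17 adult libraries at -2.36 to 0.11.

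Cebpa (ENSMUSG00000034957, chromosome 7, 35119293 to 35121928, plus strand, 1 exon) had 241, 184 and 180 CPM in the flox control and 263, 353 and 275 CPM in the homozygous deletion. The groups did not overlap, but flox control replicate 3 came close to the lowest homozygous library. The log2 fold change was 0.54 (95% interval 0.28 to 0.80, adjusted p = 0.00432, edgeR). Against the heterozygous deletion, at 229, 222 and 224 CPM, it was 0.38 (adjusted p = 0.0251, edgeR). That second call was lost without heterozygous deletion replicate 3, 4 or 5 (0.38, adjusted p from 0.0584 to 0.069) or homozygous deletion replicate 3 (0.27, adjusted p = 0.101), with edgeR. The exon of Cebpa overlaps Gm45091 on the other strand, with the same limit as for Gfi1.

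Spi1 (ENSMUSG00000002111, chromosome 2, 91082390 to 91115756, plus strand) had 415, 297 and 298 CPM in the flox control, 352, 331 and 318 CPM in the heterozygous deletion and 427, 442 and 447 CPM in the homozygous deletion. Its homozygous libraries were the 3 highest of the series, but flox control replicate 3 lay just below them. The log2 fold change was 0.37 against the flox control (95% interval 0.12 to 0.61, adjusted p = 0.0213, edgeR) and 0.37 against the heterozygous deletion (adjusted p = 0.0195, edgeR). The first of these calls was lost without flox control replicate 4 (0.29, adjusted p = 0.0843), without replicate 5 (0.28, adjusted p = 0.0864) and without homozygous deletion replicate 4 (0.33, adjusted p = 0.0728), all with edgeR. The second was lost without heterozygous deletion replicate 4 (adjusted p = 0.055) or 5 (adjusted p = 0.0709), or homozygous deletion replicate 4 (adjusted p = 0.0681), with edgeR.

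Runx1 (ENSMUSG00000022952, chromosome 16, 92601466 to 92826149, minus strand) had 492, 427 and 437 CPM in the flox control, 500, 527 and 542 CPM in the heterozygous deletion and 383, 385 and 425 CPM in the homozygous deletion. The difference between homozygous deletion and flox control, -0.20 on the log2 scale, was not called (95% interval -0.37 to -0.02, adjusted p = 0.0665, edgeR). It was called without homozygous deletion replicate 4 (-0.28, adjusted p = 0.0171, edgeR) and with no filter on low counts (-0.21, adjusted p = 0.0418, edgeR). Against the heterozygous deletion Runx1 fell by 0.42 (adjusted p = 0.00176, edgeR), with no overlap between the groups. Its exons overlap Gm26626 on the other strand.

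Egr1 (ENSMUSG00000038418) was not called in any fetal comparison. It had 160, 36.0 and 32.3 CPM in the flox control, 120, 54.4 and 25.5 CPM in the heterozygous deletion and 81.4, 72.8 and 83.8 CPM in the homozygous deletion. One library in each of the first 2 groups was 2 to 5 times above the others, and the interval of the log2 fold change against the flox control was wide, from -1.30 to 1.40. Without flox control replicate 3 the log2 fold change was 1.21 (adjusted p = 0.0469, edgeR), so that this library decides the call.

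Loss of 1 allele left no call among the 7 genes. In the heterozygous deletion against the flox control 0 of the 7 genes passed with edgeR and 0 with DESeq2, and 1, Runx1, had an unadjusted p under 0.05. The background was 0.0316% of genes called, 4 of 12678. The largest difference was that of Runx1, at 0.22 on the log2 scale (95% interval 0.05 to 0.39, adjusted p = 0.448, edgeR). For Irf8 the interval ran from -0.24 to 0.34 and for Klf4 from -0.52 to 0.34, which leaves out falls of the size seen in the homozygous deletion. Between homozygous and heterozygous deletion 6 of the 7 genes were called, 3 higher and 3 lower, on a background of 42.3%. The 2 comparisons of the homozygous deletion share its 3 libraries.

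**Figure D3:**
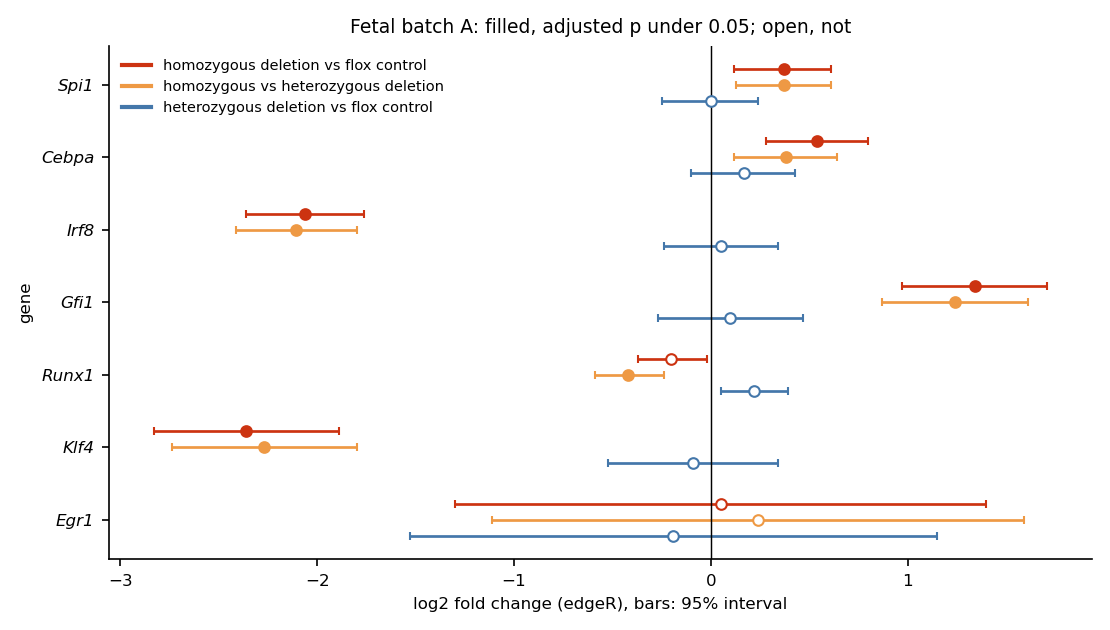
Log2 fold change (x axis) of the 7 genes (y axis) in the 3 fetal comparisons of batch A, from edgeR, with 95% intervals. Filled points had an adjusted p under 0.05. Irf8 and Klf4 lie near -2 in both comparisons of the homozygous deletion and near 0 in the heterozygous deletion against the flox control.

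Markers of other cell types moved with the genotype, and their part in these results was not tested. The 7 hepatocyte markers with a row, such as Alb and Apoa1, summed to 88.1 to 519 CPM in the flox control, 44.8 to 103 CPM in the heterozygous deletion and 10.7 to 26.5 CPM in the homozygous deletion, and 7 of 7 fell between the first and the last of these. Liver cells express Cebpa too. The hepatocyte level of the homozygous deletion did not overlap that of the flox control or the heterozygous deletion. As a covariate it therefore cannot be separated from that genotype, and the fits with it do not show the part of liver cells. Against the flox control the covariate removed 3 calls. With it the log2 fold changes were 0.11 for Cebpa (adjusted p = 0.80), 0.52 for Gfi1 (adjusted p = 0.194) and -0.10 for Spi1 (adjusted p = 0.779), all with edgeR. Irf8 (-2.47) and Klf4 (-3.26) kept theirs, and Runx1 (-0.59, adjusted p = 0.0158, edgeR) gained one. Against the heterozygous deletion, with the same covariate, Gfi1 stayed called (0.81, adjusted p = 0.00286), and Cebpa (0.16, adjusted p = 0.42) and Spi1 (0.13, adjusted p = 0.424) did not, with edgeR.

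Of 4 monocyte and dendritic markers tested, 4 fell between flox control and homozygous deletion. F13a1 was at 78.9 ± 5.91 CPM (SD, n = 3) in the homozygous deletion, a fall of 5.50 times. The summed level of the list, most of which was F13a1, was 82.1 to 105 CPM against 463 to 627 CPM in the flox control. Flt3, a receptor of early lymphoid and dendritic progenitors, fell 5.09 times. Of 8 macrophage markers 7 fell, among them C1qa, and Vcam1 rose. The 8 markers of later neutrophil stages summed to 196 to 412 CPM in the flox control and 807 to 1510 CPM in the homozygous deletion, where 4 of 8, Ltf, Camp, Lcn2 and Ngp, rose. These 4 encode granule proteins and are also members of the target list below. Lists of 3 other blood lineages fell as well: 4 of 4 B-cell markers (a sum of 57.9 to 119 CPM in the flox control and 23.6 to 26.3 CPM in the homozygous deletion), 5 of 5 megakaryocyte markers (178 to 246 and 74.6 to 119 CPM) and 3 of 4 erythroid markers (264 to 558 and 180 to 247 CPM). The sum of the T and NK cell markers was higher in the homozygous deletion, at 144 to 194 CPM against 54.4 to 85.8 CPM. Of the 3 tested, 1 rose and 1 fell. Mast and basophil markers summed to 339 to 405 CPM in the flox control and 616 to 713 CPM in the homozygous deletion, where 3 of 6 rose. Most of each sum was Gata2, a gene that is also in the list of partners below. Kit, the receptor that the sort selects for, was 1.93 times lower in the homozygous deletion (adjusted p = 8.11e-05, edgeR).

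The start sites of Irf8 and Klf4, which fell together, and of Cebpa, which rose, are shown to compare what lies before them. The 250 bases before the start come from RefSeq promoters of GRCm38.p6, in which 5 of the 7 genes had an entry. They were searched on both strands for GAGGAAGT (a PU.1 element), TTGCGCAA and the shorter TTGCG that lies within it (C/EBP), TGTGGT (RUNX), TTCNNNGAA (GAS, the element bound by STAT factors), GCGGGGGCG (EGR), CCAAT and TATAAA, and the matching letters are in capitals. The windows lie at chr8:120736108-120736357 (plus strand), chr4:55532476-55532725 (minus strand) and chr7:35119043-35119292 (plus strand).
Irf8: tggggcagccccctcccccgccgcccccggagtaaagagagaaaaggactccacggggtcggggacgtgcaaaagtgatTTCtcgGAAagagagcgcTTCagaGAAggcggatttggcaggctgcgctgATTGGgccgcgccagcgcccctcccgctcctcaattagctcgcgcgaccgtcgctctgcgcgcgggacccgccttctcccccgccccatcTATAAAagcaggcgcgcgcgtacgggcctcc
Klf4: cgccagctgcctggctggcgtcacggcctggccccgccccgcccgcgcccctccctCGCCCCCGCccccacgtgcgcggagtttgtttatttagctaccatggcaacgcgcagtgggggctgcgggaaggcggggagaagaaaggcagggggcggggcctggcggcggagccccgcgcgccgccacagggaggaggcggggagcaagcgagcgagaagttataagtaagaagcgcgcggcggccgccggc
Cebpa: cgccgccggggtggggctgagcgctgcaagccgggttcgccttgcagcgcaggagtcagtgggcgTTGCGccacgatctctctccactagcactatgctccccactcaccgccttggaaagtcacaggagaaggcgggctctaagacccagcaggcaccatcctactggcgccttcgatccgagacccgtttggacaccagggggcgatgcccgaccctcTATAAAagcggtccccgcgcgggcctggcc

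In the Irf8 window shown TTCNNNGAA matched at 2 places, which 0.317% of 32841 windows of the same length held, and 7.02% held at least 1. TATAAA, held by 12.4% of windows, matched 31 bases before the start of Irf8 and 30 before that of Cebpa. The Klf4 window had 1 EGR match on the minus strand (2.57% of windows), and the Cebpa window the short C/EBP letters TTGCG (4768 of 32841 windows). CCAAT, held by 33.9% of windows, matched once in that of Irf8, on the minus strand. GAGGAAGT (2.44% of windows), TTGCGCAA (0.164%) and TGTGGT (4613 windows) had no match in the 3 windows. The GC content was 67.2%, 74.0% and 66.4% in the 3 windows, against a median of 52.4% over all windows. RefSeq gives a further start of Irf8, and the window before it, at chr8:120738389-120738638, held none of these motifs. Windows of Gfi1 and Runx1 were searched too and are not shown. Those of Gfi1, which rose more than Cebpa, held none of these motifs. Those of Runx1 held CCAAT matches and 1 EGR match. A match describes the letters and says nothing about binding.

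Other factors and cofactors of these genes were followed in a list of 30, of which 23 had a row. Between homozygous deletion and flox control 6 of the 23 rose and 4 fell, with a median log2 fold change of 0.08 (-0.02 over all genes tested). These shares, 26.1% higher and 17.4% lower, were near the 18.5% and 22.4% of all genes, so the count says nothing particular about the list, and the genes below are given for their sizes. Nab2, a corepressor of EGR proteins, rose from 1.20 ± 0.385 to 5.09 ± 1.84 CPM (SD, n = 3 each), and Gata2, a factor of stem cells and mast cells that is also in the mast cell marker list, rose from 271 ± 9.46 to 513 ± 8.60 CPM. Fli1, an ETS factor, rose 1.38 times. Trib2, a pseudokinase that promotes the breakdown of C/EBP-alpha, fell 5.09 times, from 26.3 ± 9.90 to 5.22 ± 2.20 CPM. Irf4, the nearest relative of Irf8, fell from 3.38 ± 1.54 to 0.449 ± 0.504 CPM, and Zeb2, a factor of monocytes and dendritic cells, fell 2.10 times. Cbfb, the partner of Runx1, rose 1.18 times. Against the heterozygous deletion 6 rose and 5 fell (26.1% and 21.7%, against 19.8% and 22.4% of all genes). Id2, an inhibitor of helix-loop-helix factors, was among those that rose (1.73 times).

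Genes known as targets of these factors split in the same comparison. The list held 26 genes, of which 17 had a row, and it was chosen with earlier results of these data known. Of the 17, 10 rose and 2 fell (58.8% and 11.8%, against 18.5% and 22.4% of all genes), with a median log2 fold change of 0.69. Csf1r, the receptor of the macrophage growth factor, fell from 256 ± 25.1 to 28.0 ± 3.52 CPM (SD, n = 3 each), 9.25 times (adjusted p = 4.57e-08, edgeR). Il6ra, the receptor of interleukin 6, fell 2.21 times. Ngp rose 7.01 times to 413 ± 144 CPM, Lcn2 4.53 times and Camp 4.42 times. Elane and Ctsg, serine proteases of primary granules, rose 1.63 and 1.91 times. Against the heterozygous deletion 12 rose and 2 fell (70.6% and 11.8%, against 19.8% and 22.4% of all genes). In the heterozygous deletion against the flox control 0 of the 17 were called with edgeR (0.0316% of all genes were), and 5 had an unadjusted p under 0.05.

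For S34F the only control of the same batch was a single Vav1-Cre library, and no test was made. None of the 7 genes differed 2-fold in all 4 S34F libraries, as 1.34% of the 11823 genes considered did. Cebpa was at 150 CPM in the control and at 169, 173, 189 and 178 CPM in the S34F libraries. Irf8 was at 159 CPM in the control and at 144, 131, 133 and 142 CPM in them. Klf4 was at 12 CPM in the control and at 9.27, 8.65, 9.01 and 8.37 CPM, and Egr1 at 45.7 CPM and 32.6, 26.2, 26.6 and 24.8 CPM. So Irf8, Klf4 and Egr1 were below the control in all 4 libraries (3 of 7, against 29.6% of genes), and Cebpa and Gfi1 were above it in all 4 (2 of 7, against 29.1% of genes), shares near those of all genes. Spi1 (230 to 237 CPM against 232) and Runx1 (422 to 458 CPM against 444) lay on both sides. The lowest ratios, scaled within these 5 libraries, were 0.832 for Irf8, 0.691 for Klf4 and 0.539 for Egr1. The 13 immediate early genes summed to 318 to 402 CPM in the S34F libraries and 494 CPM in the control, lower in the same libraries as Egr1.

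In adult bone marrow none of the 7 genes was called at any dose against the untreated wild type. At 1250 ppm 0 of 7 passed in edgeR (11.4% of 13338 genes called) and 0 had an unadjusted p under 0.05. At 2500 ppm 0 of 7 passed (0.487% of genes called), and 1 had an unadjusted p under 0.05. At 10000 ppm 0 of 7 passed (1.27% of genes called), and 2 had an unadjusted p under 0.05. DESeq2 called 1 gene, Gfi1, at 10000 ppm and none of the 7 at the other doses.

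Gfi1 was at 266, 305 and 286 CPM in the untreated wild type. It was at 186, 180, 214 and 235 CPM at 1250 ppm, between 145 and 245 CPM with a median of 209 at 2500 ppm, and at 212, 185, 179 and 79.1 CPM at 10000 ppm. Each dosed library lay below each untreated one, but the differences were not called. The log2 fold change was -0.79 at 10000 ppm (95% interval -1.31 to -0.28, adjusted p = 0.083), -0.51 at 2500 ppm (adjusted p = 0.294) and -0.47 at 1250 ppm (adjusted p = 0.196), all with edgeR. These 3 comparisons share the 3 untreated libraries. With DESeq2 the first was called (-0.77, adjusted p = 0.0353), and over its alternatives the adjusted p ran from 0.0353 to 0.295. At 1250 ppm Gfi1 was called when only those groups entered the fit (-0.48, adjusted p = 0.0129, edgeR).

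Cebpa differed between the doses. It was at 303, 286, 300 and 295 CPM at 1250 ppm, between 260 and 317 CPM with a median of 290 at 2500 ppm, and at 247, 247, 254 and 191 CPM at 10000 ppm. The libraries at 10000 ppm lay below all others of the dosed groups. Between 10000 and 1250 ppm Cebpa fell by 0.34 on the log2 scale (95% interval -0.54 to -0.14, adjusted p = 0.0223, edgeR), the only one of the 7 called, on a background of 18.1%. Over the 3 doses its slope was -0.11 per doubling of the dose (95% interval -0.17 to -0.04, adjusted p = 0.0358, edgeR), again the only call, on a background of 10.7%. Both calls were near the threshold. Without 10000 ppm replicate 4, the lowest library, the first became -0.22 (adjusted p = 0.0596, edgeR), and it was also lost without 1250 ppm replicate 1, 4 or 5 (adjusted p from 0.0568 to 0.0884). With only the compared groups in the fit Cebpa was not called (-0.30, adjusted p = 0.0796) and Runx1 was (0.30, adjusted p = 0.0405), with edgeR. The slope lost its call without any 1 of the 4 libraries at 1250 ppm (adjusted p from 0.0544 to 0.0715) or without 10000 ppm replicate 1 (adjusted p = 0.0593) or 2 (adjusted p = 0.0832), with edgeR. Against the untreated wild type, at 290, 329 and 262 CPM, the difference at 10000 ppm was -0.31 (adjusted p = 0.0981, edgeR).

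**Figure D4:**
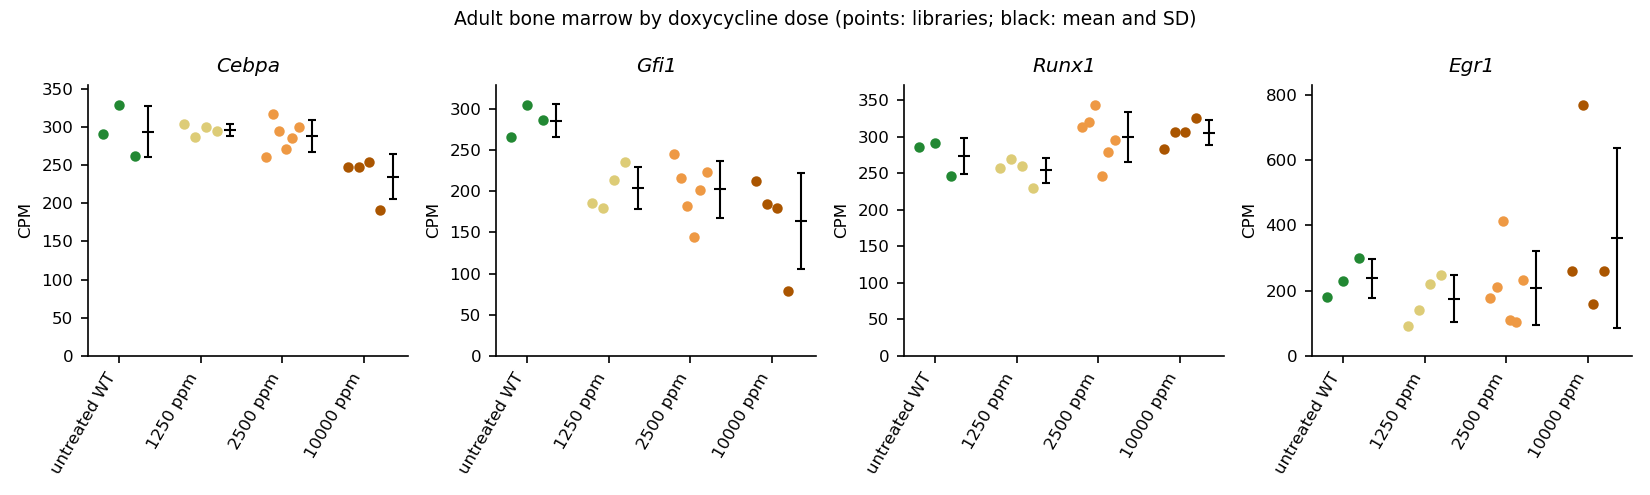
CPM of Cebpa, Gfi1, Runx1 and Egr1 (y axes from 0) in adult bone marrow by doxycycline dose (x axis), with 1 point per library and the mean and SD of each group in black. Cebpa at 10000 ppm (191 to 254 CPM) lies below the other dosed libraries, and Gfi1 lies below the untreated range in all dosed libraries.

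Runx1 was at 257, 269, 260 and 230 CPM at 1250 ppm and at 283, 307, 307 and 325 CPM at 10000 ppm, with no overlap. Its log2 difference of 0.26 just missed the threshold in edgeR (95% interval 0.07 to 0.46, adjusted p = 0.0569), and it was called with DESeq2 (0.29, adjusted p = 0.0235) and, in edgeR, without 10000 ppm replicate 3 (0.31, adjusted p = 0.0464). Irf8 had a wider spread in the untreated wild type, at 296, 248 and 123 CPM, than at 1250 ppm, at 202, 179, 188 and 178 CPM, and every dose group overlapped the untreated range. At 10000 ppm against untreated its interval ran from -0.43 to 0.54 on the log2 scale. Klf4 was at 12.1 to 21.2 CPM in the untreated wild type and at 25.7, 59.9, 12.5 and 9.98 CPM at 10000 ppm, where its SD was 85.1% of the mean. Spi1 at 10000 ppm was at 344, 398, 242 and 156 CPM, which held both the highest and the lowest adult library.

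The adult libraries differed in their makeup, and the part of this in the results was not tested. The mature neutrophil list summed to 34700, 41100, 5640 and 793 CPM in the 4 libraries at 10000 ppm, to 817 to 1290 CPM at 1250 ppm, and to 10300, 4230 and 1070 CPM in the untreated wild type. Of 7 macrophage markers tested, 4 rose at 1250 ppm against the untreated wild type and none at the other doses with edgeR, where 6 of 7 had an unadjusted p under 0.05. C1qa was at 0.312 ± 0.181 CPM in the untreated wild type (SD, n = 3) and at 7.01 ± 6.39 CPM at 1250 ppm (n = 4). The sum of the 8 with a row was lower in the dosed groups, 92.6 to 349 CPM against 353 to 456 CPM, and most of it was Vcam1, at 378 ± 59 CPM in the untreated wild type. The 4 B-cell markers summed to 18.5 to 25.7 CPM in the untreated wild type and to 32.3 to 70.2 CPM in the dosed groups. Of these, 4 of 4 rose at 1250 and at 2500 ppm and 3 of 4 at 10000 ppm. Of 5 megakaryocyte markers 4 rose between 1250 and 10000 ppm, from a sum of 48.9 to 96.1 CPM to one of 91.8 to 292 CPM, in the contrast where Cebpa was called. The 2 libraries at 10000 ppm with the highest mature neutrophil sums, 34700 and 41100 CPM, were also the 2 of that group with the highest Spi1 and Klf4. Library 4 at 10000 ppm, the lowest of its group in all but Runx1 and Egr1, had the highest erythroid sum, 1090 CPM against 439 to 678 CPM in the others of its group. The untreated library with the low Irf8, replicate 3, had an erythroid sum of 852 CPM against 246 and 231 CPM in the other two, and it lacked reads of Gm29650, a Y-linked transcript. Without it, Irf8 at 10000 ppm against untreated was -0.23 (adjusted p = 0.528, edgeR) in place of 0.05.

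Of the 17 target genes, 6 rose and 1 fell between 1250 and 10000 ppm (35.3% and 5.88%, against 7.53% and 10.6% of all genes). Ltf rose from 189 ± 82.1 to 5470 ± 5410 CPM (SD, n = 4 each), Ngp from 436 ± 98.5 to 9670 ± 9490 CPM and Camp from 166 ± 17.8 to 2780 ± 2720 CPM. Ltf, Ngp and Camp are themselves in the mature neutrophil list, so their SD, as large as the mean, goes with the neutrophil sums of replicates 1 and 2 by construction. Ctsg fell from 3290 ± 600 to 1940 ± 538 CPM. Against the untreated wild type 0 of 17 were called at any dose with edgeR, with 0 to 6 at an unadjusted p under 0.05. Of all genes, 0.487% to 11.4% were called there. Of the 23 partners 2 rose between 1250 and 10000 ppm, 8.7% against 7.53% of all genes, so that count says nothing particular about the list. Irf2 rose 1.46 times between these doses and was 1.24 times lower at 1250 ppm than in the untreated wild type (adjusted p = 0.0363, edgeR). Nab1, a corepressor of EGR proteins, was also lower at 1250 ppm than in the untreated wild type (1.31 times, adjusted p = 0.0122, edgeR). Irf4 rose from 0.36 ± 0.139 CPM in the untreated wild type (n = 3) to 3.82 ± 2.98 CPM at 10000 ppm (n = 4).

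Egr1 had the widest range of the 7 across the adult libraries, from 91.7 to 770 CPM. Library 2 at 10000 ppm stood at 770 CPM and the other 3 of its group at 259, 158 and 261 CPM. A list of 18 other immediate early genes, of which 13 had a row, was summed per library. The sum was 6680 CPM in that library and 1320 to 2800 CPM in the other 3, and in batch A it was 1280 CPM in flox control replicate 3 against 368 and 394 CPM in the other two. Over 30 libraries in 8 groups, the deviations of Egr1 from its group means had a Pearson r of 0.96 with those of the mean log2 level of the list. This r is a description, since depth differs between the libraries and how far they shared their handling is not known here. Between homozygous deletion and flox control 1 of the 13, Dusp2, fell (2.09 times, adjusted p = 0.0357, edgeR), where 22.4% of all genes fell. In the heterozygous deletion 0 were called, with 0 at an unadjusted p under 0.05. Between 1250 and 10000 ppm 2 of 13 rose (15.4%, against 7.53% of all genes), among them Btg2 (2.36 times, adjusted p = 0.0353, edgeR). At 1250 ppm Nfkbia, an inhibitor of NF-kappa-B, was lower than in the untreated wild type (2.22 times, adjusted p = 0.0249, edgeR).

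**Figure D5:**
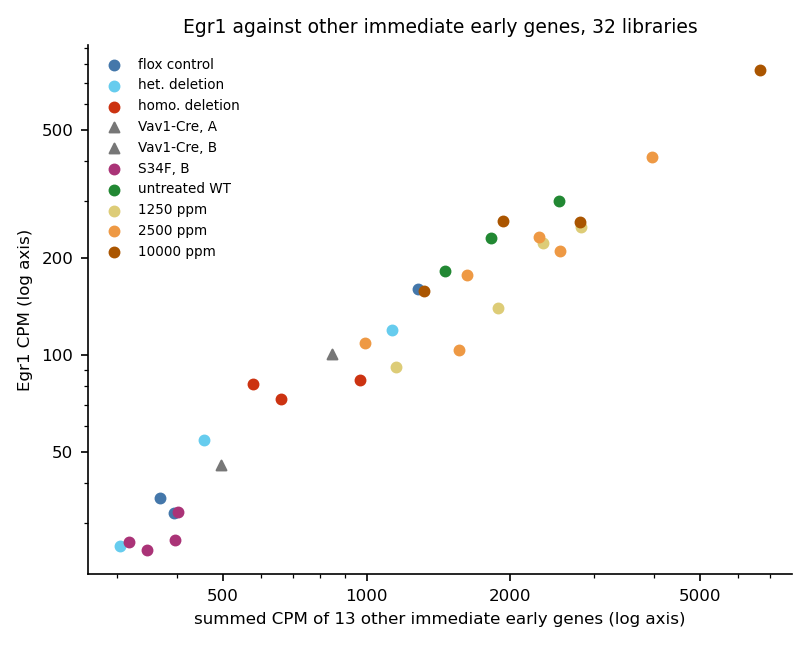
Egr1 (y axis, CPM, log axis) against the summed CPM of 13 other immediate early genes (x axis, log axis) in 32 libraries, coloured by group. The points rise together from the S34F libraries (24.8 to 32.6 CPM of Egr1) to library 2 at 10000 ppm (770 CPM).

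Compared per kilobase of exon, Spi1 was the most abundant of the 7 genes in every fetal group, at 86.2 to 163 CPM per kilobase in group means, followed by Cebpa. Klf4 was the lowest in every group, at 1.25 to 8.85 CPM per kilobase. Runx1 held the next place after Cebpa in the fetal groups except the homozygous deletion, where Gfi1 (82.9 ± 8.43 CPM per kilobase, SD, n = 3) stood above it. In the adult groups Cebpa and Spi1 were close, at 111 ± 12.7 and 98.4 ± 6.79 CPM per kilobase in the untreated wild type, and Runx1 was lower than Gfi1, Egr1 and Irf8. These places depend on the length of all annotated exons, which was 12025 bases for Runx1. In CPM Runx1 stood above Spi1 in the flox control, at means of 452 and 337.

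Across the groups each gene had its own order of mean levels. Runx1 was higher in all 15 fetal libraries (383 to 542 CPM) than in all 17 adult ones (230 to 344 CPM). Egr1, Gfi1, Irf8 and Klf4 had their highest group means in adult marrow. Stage, tissue and batch changed together here and cannot be told apart. Most neighbours in these orders overlapped. Spi1 stood apart from its neighbour at the top, the homozygous deletion (438 ± 10.5 CPM, n = 3) above the flox control (337 ± 67.4 CPM, n = 3). That gap was narrow, with the nearest libraries at 427 and 415 CPM. Irf8 and Klf4 stood apart at the bottom, with the homozygous deletion at 45.7 ± 7.08 and 3.80 ± 0.464 CPM below S34F at 138 ± 6.61 (n = 4) and 8.83 ± 0.394 CPM. Of 9 neighbour pairs per gene, counting the Vav1-Cre libraries of each batch on their own, 1 to 4 had no overlap. Each Vav1-Cre group is 1 library with no spread of its own, which makes an overlap less likely. The same count was not made over all genes, so it says nothing particular about the 7.

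Genes whose levels varied most like each factor were sought among 8228 genes with a mean of at least 5 CPM, by the Pearson r of log2 CPM after removing group means, over 30 libraries in 8 groups. For Spi1 the nearest were Pik3ap1 (r = 0.982), Fhl3 (0.974) and Pstpip1 (0.970). For Irf8 they were Rasa4 (0.885), Csf1r (0.885) and Ppfia4 (0.867), and for Gfi1 Nucb2 (0.981), Cldn15 (0.969) and Mgst2 (0.967). For Cebpa they were Hexa (0.858), Ramp1 (0.835) and Man2b2 (0.834). Runx1 was nearest to Runx2 (0.861), Fam214a (0.764) and Grk3 (0.757). Klf4 was nearest to Fosl2 (0.921), Lipe (0.894) and Hcls1 (0.891), and Egr1 to Zfp36 (0.954), Ppp1r15a (0.942) and Dusp1 (0.933). Among the 7 themselves r ran from 0.07 (Irf8 and Egr1, Gfi1 and Runx1) to 0.86 (Spi1 and Klf4), and it was 0.15 between Irf8 and Gfi1. All these values rest on the same libraries, and they are descriptions with no test.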

How the data were processed

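The authors deposited 1 table of raw read counts, 27728 genes by 32 libraries. Libraries were made from ribosomal RNA-depleted total RNA and sequenced as read pairs of 150 bases, per the labels' protocols, and aligned to GRCm38 with HISAT2 2.1.0, per the series' design text. The counting tool, its annotation, its use of strand and any gene filter are not given in the sources used here. Symbols, exon lengths and overlaps came from GENCODE M21. Tests used edgeR 4.0.16 (quasi-likelihood, filterByExpr, TMM, Benjamini-Hochberg, threshold 0.05) with R 4.3.3, fitted over all genes, in 3 models: the 9 fetal libraries of batch A with a Cre-deletion or flox genotype, the 17 adult libraries, and the 14 dosed adult libraries with a slope on log2 of the dose. Intervals are at 95%. Batches were never joined in a test, since the design text warns of batch effects in fetal samples. For S34F, the fold against 1 library was taken where the mean count reached 10. Log2 CPM used a prior count of 2. DESeq2 1.42.0, other scalings, no filter, a replicate block, covariates and leaving out each replicate were the alternatives. Scripts were tested on simulated data: at a log2 change of 1, 61% of changed genes were recovered in the homozygous deletion against flox control (12678 genes), 49% in 10000 ppm against untreated (13338 genes) and 54% in the trend (12849 genes).

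The 7 members and the lists were chosen with earlier results of these data known. From the lists, the text names the 3 genes in each direction with the largest change among those called with a mean of at least 1 CPM, and, as most alike, the 3 genes with the highest r. Cbfb, Elane, Ctsg and Ltf in the fetal comparison, Ngp and Camp in the adult one, and the cell markers named were chosen after their values were seen.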

Additional observations from a re-analysis of the deposited data

Results flagged for a closer look

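Among 28 sets, each of 1 gene in 1 group of 4 or 6 libraries, the highest and lowest library were checked for a gap to the next. In 2 sets the gap exceeded Dixon's 95% limit. Groups with fewer than 4 libraries were not checked. Chance gives about 1 in 20. Cebpa in 10000 ppm replicate 4 was the lowest of its 4 libraries at 191 CPM, with the nearest at 247 CPM and a gap of 0.889 of the range. Egr1 in 10000 ppm replicate 2 was the highest of its 4 libraries at 770 CPM, with the nearest at 261 CPM and a gap of 0.832 of the range.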

How the results depend on the processing

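Of 770 alternative values of 56 member results, 681 kept direction and side of the threshold, and 50 turned direction, whether or not a call was lost with it. Of the rest, which kept direction, 28 lost a call and 11 gained one. The cause was not tested. The falls of Irf8 and Klf4 in the homozygous deletion kept their calls in every alternative run. The hepatocyte covariate left 3 members and 1147 genes called against the flox control (5 and 5194 without it), and it gave -0.10 for Spi1 and -1.01 for Egr1. In the heterozygous deletion it gave -0.05 for Cebpa, -0.16 for Irf8, -0.30 for Gfi1 and 0 genes called, and between homozygous and heterozygous deletion -0.49 for Egr1. DESeq2 called 119 genes in the heterozygous deletion (4 with edgeR), 1055 at 10000 ppm with 1 member (169 and 0), 567 at 2500 ppm (65), 2519 at 1250 ppm (1524) and 2227 in the trend (1376), and 2 members between 10000 and 1250 ppm, as did RLE scaling (1 in edgeR with TMM). Without a filter 230 genes were called in the heterozygous deletion, 702 at 1250 ppm and 1533 between the doses (2420). With only the compared groups 0, 1, 4, 3165 and 1052 genes were called in the heterozygous deletion, at 10000, 2500 and 1250 ppm and between the doses, and 1 member, Gfi1, at 1250 ppm. A Y-linked covariate, which did not vary in the dosed libraries and was not run for the trend, left 0 genes at 10000 ppm and 1 at 2500 ppm. It gave -0.23 for Irf8 at 10000 ppm, -0.02, -0.03 and 0 for Spi1, Irf8 and Egr1 at 2500 ppm and -0.05 for Cebpa at 1250 ppm. With the rank of the dose 2 members and 2069 genes were called in the trend. For S34F 528 genes passed at 1.5-fold and 26 with a mean count of at least 50 (159).

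The deviations of same-numbered libraries correlated at r from -0.16 to 0.14 in 7 fetal pairs, 1 of them over 0.1, and from -0.27 to 0.52 in 19 adult pairs, 6 of them over 0.1. Pairs of unlike number reached 0.14 and 0.36, and not every library correlated best with its own number. No label ties equal numbers, and they were not taken as pairs. With a replicate block 0 genes were called in the heterozygous deletion, 121 at 2500 ppm, 438 at 1250 ppm, 1184 between the doses and 33 in the trend, where 0 members were called. Under the block Egr1 was -0.02 in the homozygous deletion, Spi1 0.01 in the heterozygous deletion, Spi1 -0.15 and Klf4 -0.49 between the doses, and Spi1 -0.03 and Klf4 -0.14 in the trend. The block ended the calls of Spi1 in the homozygous deletion against flox control (0.36, adjusted p = 0.0588) and against the heterozygous deletion (0.35, adjusted p = 0.0607), and of Cebpa in the trend (-0.12, adjusted p = 0.0847), all with edgeR.

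Leaving out 1 replicate at a time, genes called ran from 0 to 269 in the heterozygous deletion, 0 to 816 at 10000 ppm, 0 to 163 at 2500 ppm, 68 to 1445 at 1250 ppm, 1118 to 2809 between the doses and 87 to 2240 in the trend, and members called from 0 to 2 between the doses and 0 to 1 in the trend. Egr1 ran from -0.32 to 1.21 in the homozygous against flox, -0.15 to 0.95 in the homozygous against heterozygous and -0.90 to 0.96 in the heterozygous comparison. There Gfi1 ran from -0.03 to 0.37, Irf8 -0.05 to 0.24, Klf4 -0.23 to 0.23 and Spi1 -0.09 to 0.17. At 10000 ppm Egr1 ran from -0.07 to 0.90, Irf8 -0.23 to 0.33, Klf4 -0.09 to 0.94 and Spi1 -0.09 to 0.33. At 2500 ppm Cebpa ran from -0.12 to 0.05, Irf8 -0.03 to 0.52 and Spi1 -0.03 to 0.10, and at 1250 ppm Cebpa -0.07 to 0.10, Irf8 -0.55 to 0.01 and Spi1 -0.01 to 0.13. Between the doses Klf4 ran from -0.69 to 0.37 and Spi1 -0.18 to 0.26, and in the trend Klf4 -0.22 to 0.14 and Spi1 -0.05 to 0.10.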
